A study of Sus scrofa with 24 samples.

Results

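HBE1, HBB and AHSP, 3 genes of the red cell lineage, were followed in pig longissimus dorsi muscle, a long muscle of the back, across fetal development and in adults. HBE1 encodes the embryonic epsilon chain of haemoglobin, HBB encodes the beta chain of the haemoglobin carried after birth, and AHSP encodes the alpha-haemoglobin stabilising protein. They were taken by the gene symbol in the array's annotation, which gave 1 probe set to each, so they are 3 of 6765 genes with a symbol of their own and 3 of 23999 probe sets tested.

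Haemoglobin is built of alpha-like and beta-like globin chains that each hold a haem group. The first red cells of the embryo are made in the yolk sac and use epsilon globin as their beta-like chain, and red cells made later in the fetal liver and then in the bone marrow use other beta-like chains. In the pig the adult beta chain already serves in the fetus. AHSP binds free alpha chains and keeps them from precipitating until they pair with beta chains. Muscle fibres are not a red cell tissue, and red cells reach a muscle sample with the blood in its vessels.

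The samples were 24 RNA pools, each hybridised to 1 Affymetrix porcine array, in 8 groups of 3 pools named a, b and c. They came from Pietrain (Pi) and German Landrace (DL) pigs, as fetuses of 35, 63 and 91 days post conception (dpc) or as adults. The labels used here state neither how many animals made a pool nor sex nor adult age, so p-values measure only the spread between pools, which may be technical. A free-text label calls the fetal pools peripubertal, and the titles of the 35 dpc pools alone carry a K of unknown meaning.

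Markers of skeletal muscle were present in every pool. Of 12 skeletal muscle markers 10 were measured, and their mean log2 level was 15.27 to 15.32 in adult Pi and 15.33 to 15.37 in adult DL pools, against 10.91 to 11.10 in Pi and 11.37 to 11.57 in DL pools of 35 dpc. Pools of a group correlated at 0.972 or more across probe sets in the fetal groups and at 0.926 to 0.959 in the adult groups, so adult values carry more error. The background ceiling of an array, the highest of 23 control probe sets with no target spiked in, lay between 2.31 and 2.69 on the log2 scale. A probe set at or below it has only an upper bound, and a level is not comparable between probe sets.

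In the RefSeq annotation of assembly Sscrofa 11.1, used for names and neighbours only, HBB and HBE1 lie on chromosome 9 with 2 protein-coding genes between them. These 2 carry only a locus number, and whether the HBB probe set also detects their transcripts was not tested. The gene named AHSP there lies on chromosome 3, which also holds HBM, an alpha-like globin gene. AHSP was matched by symbol alone, since the array's annotation gives its probe set another gene ID than RefSeq does, so this position is that of the RefSeq gene of the same symbol.

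HBE1 was present at 35 dpc and stood at background from 63 dpc on. At 35 dpc its log2 levels were 7.13, 6.43 and 6.54 in the Pi pools, against 9.05, 8.19 and 8.84 in the DL pools. At 63 dpc they were 2.37, 2.24 and 2.11 in Pi and 2.10, 2.11 and 2.36 in DL. All 6 pools at 35 dpc lay far above all 18 later pools, which spanned 2.08 to 2.37. Of these 18 pools 16 were at or below the ceiling of their array, and the 2 just above it were pool a of Pi and pool c of DL, both at 63 dpc.

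Since both breeds reached background, the size of the HBE1 fall is a lower bound set against the ceiling. HBE1 was at least 20.3-fold lower at 63 than at 35 dpc in Pi, at least 82.0-fold lower in DL, and at least 40.8-fold lower over both breeds. The fall passed in limma's fit over all probe sets with a Benjamini-Hochberg adjusted p of 9.39e-17 over both breeds, 7.62e-13 in Pi and 2.85e-15 in DL. In the same comparison 44.2% of all probe sets passed over both breeds, 22.0% of all of them as lower, and 37.4% passed in Pi and 32.2% in DL. A call alone was therefore common over this interval. In bulk tissue, fewer cells of a type and less RNA per cell cannot be told apart. No change of HBE1 is given between later stages or between breeds after 35 dpc, where both sides were at background.

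**Figure D1:**
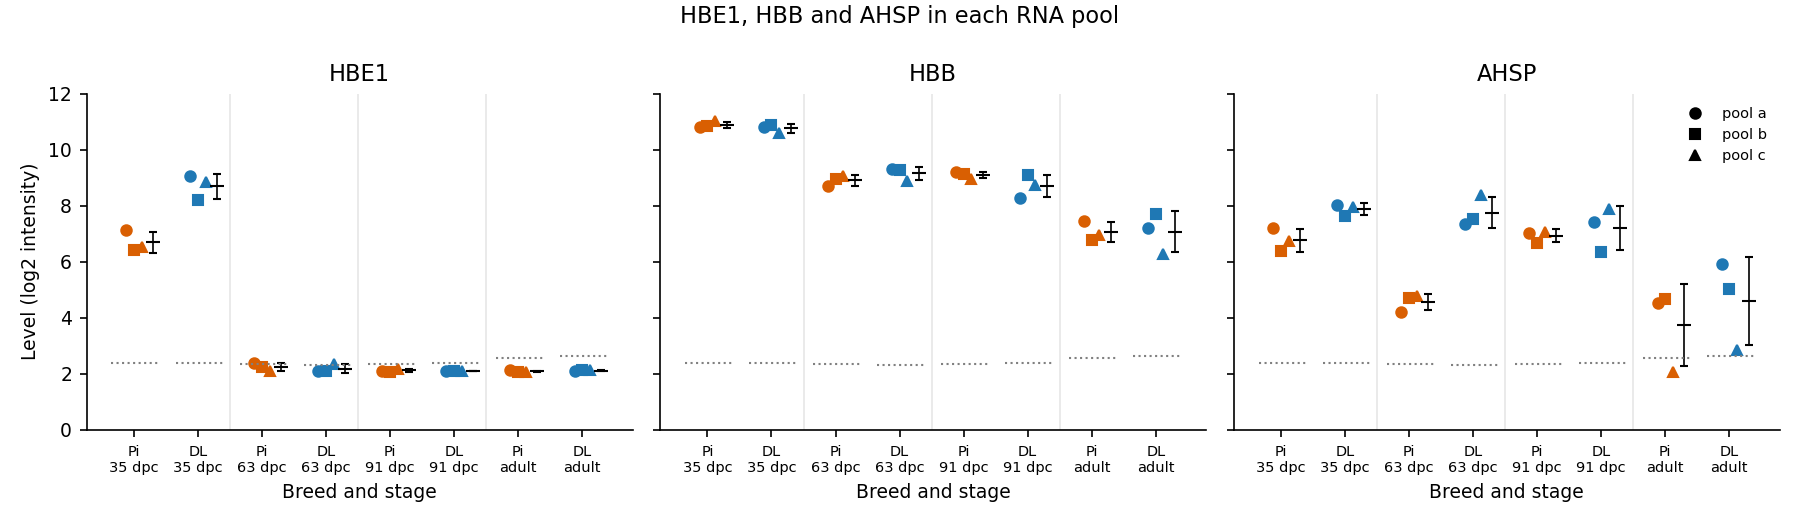
Log2 intensity of HBE1, HBB and AHSP in each of the 24 pools, by breed (Pi orange, DL blue) and stage, with the mean and SD of each group of 3 pools to the right of its points and the group's mean background ceiling as a dotted line. HBE1 stands above background at 35 dpc alone, HBB falls at 2 of 3 steps in both breeds, and AHSP is low in the Pi pools at 63 dpc and in adults of both breeds.

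HBB was lower at 63 than at 35 dpc, differed little between 63 and 91 dpc, and was lower again in adults, and it stayed far above background in every pool. At 35 dpc its log2 levels were 10.82, 10.83 and 11.01 in Pi and 10.79, 10.89 and 10.58 in DL. At 63 dpc they were 8.69, 8.96 and 9.07 in Pi and 9.30, 9.26 and 8.88 in DL. No pool of 63 dpc reached any pool of 35 dpc, and within each stage the breeds overlapped. At 91 dpc the HBB levels were 9.19, 9.12 and 8.96 in Pi and 8.29, 9.08 and 8.73 in DL. In adults they were 7.47, 6.78 and 6.97 in Pi and 7.21, 7.71 and 6.27 in DL. The 91 dpc pools overlapped those of 63 dpc, with pool a of DL at 91 dpc below the lowest of them and the other 5 within their range, and every adult pool lay below every fetal pool. By mean level the 8 groups fell into 3 blocks, 35 dpc, then 63 and 91 dpc together, then adults, and neighbouring groups within a block overlapped in their pools while neighbouring blocks did not.

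Over both breeds HBB fell by 1.79 ± 0.19 (SE) on the log2 scale between 35 and 63 dpc, so that it was 3.46-fold lower at 63 dpc (limma, adjusted p = 4.37e-07). The fall was 1.97 ± 0.28 in Pi (adjusted p = 1.38e-05) and 1.61 ± 0.28 in DL (adjusted p = 0.000158). The 2 steps differed by -0.37 ± 0.39, Pi minus DL, which did not pass (adjusted p = 0.87), in a test of the breed difference that 3.30% of probe sets passed. Between 63 and 91 dpc HBB changed by -0.13 ± 0.19, with a 95% interval of -0.54 to 0.28 (adjusted p = 0.803), where 18.3% of probe sets passed. From 91 dpc to adults it fell by 1.83 ± 0.19 and was 3.55-fold lower in adults (adjusted p = 2.16e-07), a step at which 57.4% of probe sets passed and 26.6% passed as lower. That fall was 2.02 ± 0.28 in Pi (adjusted p = 7.43e-06, with 47.8% of probe sets passing) and 1.64 ± 0.28 in DL (adjusted p = 8.01e-05, with 45.4% passing).

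The tissue around the blood changed over the same steps. All 10 measured muscle markers rose between 35 and 63 dpc, with a median log2 change of 2.63, and 7 of 9 endothelial markers rose with a median of 1.08, beside a median of 0.0043 over all probe sets. From 91 dpc to adults 6 of the muscle markers rose and 2 fell, and 5 of the endothelial markers fell and 1 rose. The table is normalised so that every array has the same distribution of values, so a level is relative to the other transcripts of the sample. For actin it was 2.380 to 2.677 in Pi and 2.118 to 2.625 in DL at 35 dpc. At 63 dpc it was 1.489 to 1.55 in Pi and 1.209 to 1.431 in DL, while GAPDH fell in Pi and overlapped in DL. For GAPDH it was 0.839 to 1.312 in Pi and 0.247 to 1.159 in DL at 91 dpc. In adults it was -0.614 to -0.548 in Pi and -0.46 to -0.39 in DL, while actin rose in Pi and overlapped in DL. The part of tissue content and RNA quality in the falls of HBE1, HBB and AHSP was not tested.

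AHSP was lower in adults than at 91 dpc in both breeds, and at 63 dpc its levels lay apart in the 2 breeds. At 35 dpc its log2 levels were 7.20, 6.37 and 6.73 in Pi and 8.02, 7.62 and 7.96 in DL. At 63 dpc they were 4.22, 4.69 and 4.78 in Pi, against 7.33, 7.53 and 8.38 in DL. The Pi pools of 63 dpc lay below every other fetal pool of either breed, and the DL pools of 63 dpc lay across the range of DL at 35 dpc. At 91 dpc AHSP stood at 7.04, 6.65 and 7.07 in Pi and at 7.40, 6.33 and 7.89 in DL. In adults it stood at 4.52, 4.66 and 2.05 in Pi and at 5.91, 5.03 and 2.85 in DL. At 91 dpc the breeds overlapped. Pool c was the lowest adult pool in both breeds, and that of Pi lay below its background ceiling.

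Averaged over the breeds, AHSP changed by -1.16 ± 0.48 between 35 and 63 dpc, which did not pass (adjusted p = 0.0585). It passed in Pi alone, where it fell by 2.20 ± 0.68 and was 4.61-fold lower at 63 dpc (adjusted p = 0.015), and not in DL, where it changed by -0.12 ± 0.68 (adjusted p = 0.973, 95% interval -1.55 to 1.30). The call in Pi was lost without pool a of 35 dpc (adjusted p = 0.0591) or pool a of 63 dpc (adjusted p = 0.0544). The difference between the breeds' steps was -2.08 ± 0.96, Pi minus DL, and did not pass (adjusted p = 0.328). It passed when the arrays of these 4 groups were fitted alone (adjusted p = 0.0266), with array weights (adjusted p = 0.0288) and when arrays were scaled to the hybridisation controls (-2.71, adjusted p = 0.045).

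Between 63 and 91 dpc AHSP changed by 0.91 ± 0.48 over both breeds, which did not pass (adjusted p = 0.241). In Pi it rose by 2.35 ± 0.68 and was 5.11-fold higher at 91 dpc (adjusted p = 0.03), at a step where 11.6% of probe sets passed and 5.76% passed as higher. This call was lost without any 1 of the 6 pools (adjusted p between 0.0607 and 0.103) and after scaling to the hybridisation controls (adjusted p = 0.0525). In DL the change was -0.53 ± 0.68 (adjusted p = 0.825, with 10.8% of probe sets passing). The difference between the breeds' steps, 2.89 ± 0.96, did not pass (adjusted p = 0.3), and 0.0917% of probe sets passed that test.

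From 91 dpc to adults AHSP fell by 2.90 ± 0.48 over both breeds and was 7.44-fold lower in adults (adjusted p = 4.38e-05). Without pool c of both adult groups, a setting chosen after the values were seen, the fall was 2.04 ± 0.29 (adjusted p = 1.55e-05). The fall was 3.18 ± 0.68 in Pi (adjusted p = 0.000755) and 2.61 ± 0.68 in DL (adjusted p = 0.0039). The call in DL was lost when the adult and 91 dpc arrays of DL were fitted alone (adjusted p = 0.0848). The breeds' steps differed by -0.56 ± 0.96 (adjusted p = 0.848, with 2.66% of probe sets passing). By mean level the groups ran DL at 35 dpc, DL at 63 dpc, DL at 91 dpc, Pi at 91 dpc and Pi at 35 dpc, each overlapping the next, and then after a gap DL adults, Pi at 63 dpc and Pi adults, which overlapped too.

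The breeds were then compared at each stage, and HBE1 at 35 dpc was the clearest difference among the 3 genes. HBE1 averaged 6.70 ± 0.38 in Pi and 8.69 ± 0.45 in DL at 35 dpc (SD, n = 3 each), and no Pi pool reached a DL pool. The difference, Pi minus DL, was -1.99 ± 0.18 on the log2 scale with a 95% interval of -2.37 to -1.62, so HBE1 was 3.99-fold lower in Pi (limma, adjusted p = 7.72e-06). In this comparison 4.03% of probe sets passed and 2.41% passed as lower in Pi. The fit shares 1 estimate of spread over all groups, and for HBE1 most groups lie at background with an SD of 0.15 or less. With the 6 arrays of 35 dpc fitted alone the standard error was 0.30 and the adjusted p was 0.0417.

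The fall of HBE1 to background therefore started from a lower level in Pi, and the fitted difference between the breeds' steps was 2.05 ± 0.25 (adjusted p = 0.000333). Since both steps ended at background, this value carries the breed difference at 35 dpc and does not compare the sizes of the falls. HBB in the same 6 pools of 35 dpc differed by 0.13 ± 0.28, Pi minus DL, with a 95% interval of -0.45 to 0.71 (adjusted p = 1). AHSP in these pools differed by -1.10 ± 0.68 (adjusted p = 0.585), although its Pi and DL pools did not overlap, and passed with array weights (adjusted p = 0.0462).

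Several other measures differed between the breeds at 35 dpc, though not all of them separated the pools. Of the 10 muscle markers 5 were lower in Pi, among them CKM, the muscle creatine kinase, by -1.03 ± 0.10 (adjusted p = 1.29e-05), and ATP2A1, the fast calcium pump, by -1.19 ± 0.17 (adjusted p = 0.000477). The difference between the 3′ and 5′ probe sets of GAPDH, which widens as RNA degrades, was 1.08 to 1.21 in Pi and 0.52 to 0.80 in DL. The same measure for actin overlapped, at 2.380 to 2.677 in Pi and 2.118 to 2.625 in DL. The mean of the hybridisation controls was 9.94 to 10.14 in Pi and 10.41 to 10.64 in DL. Scaling the arrays to these controls shifted the median of all probe sets by 0.51 and gave HBE1 a difference of -1.49 ± 0.20 (adjusted p = 0.000167), while 98.1% of the 8423 probe sets that then passed were higher in Pi. Hepatocyte markers averaged 4.77, 4.75 and 5.22 in Pi and 6.29, 6.64 and 4.35 in DL. These means overlapped between the breeds. HBE1 in the same pools stood at 7.13, 6.43 and 6.54 in Pi and at 9.05, 8.19 and 8.84 in DL. The part of RNA quality, muscle content and liver transcripts in the HBE1 difference was not tested.

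**Figure D2:**
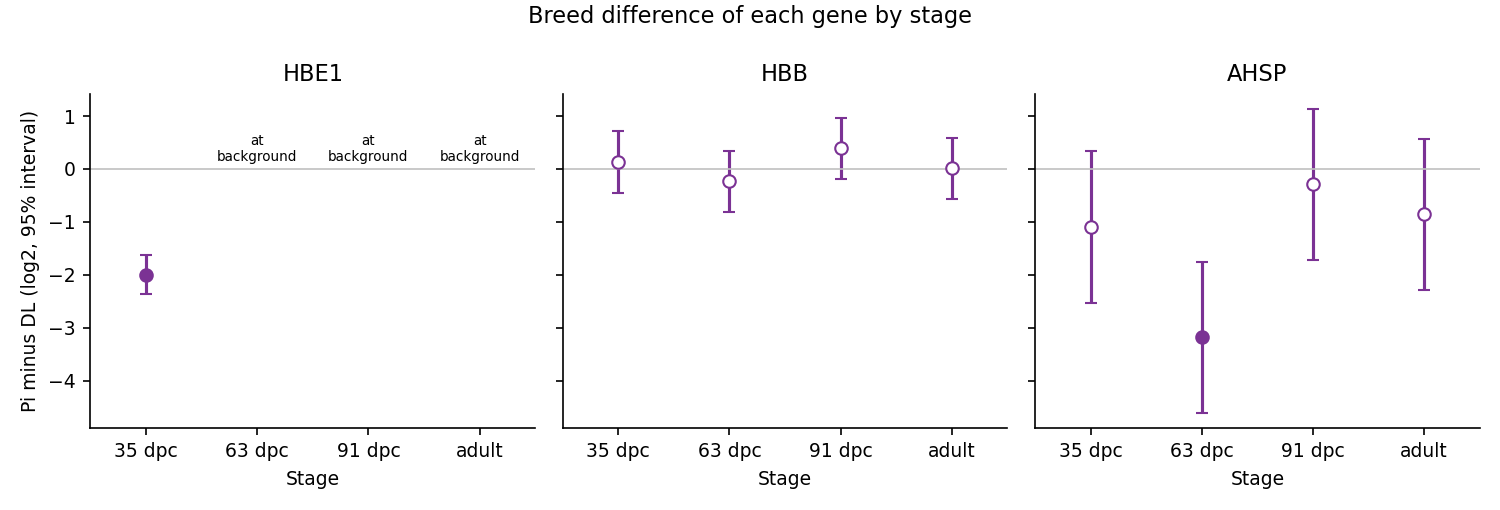
Difference in log2 level between breeds, Pi minus DL, for HBE1, HBB and AHSP at each stage, with 95% intervals from limma's fit of all 24 arrays. Filled points passed an adjusted p of 0.05, as HBE1 did at 35 dpc (-1.99) and AHSP at 63 dpc (-3.18), and HBE1 is not drawn where both breeds stood at background.

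At 63 dpc AHSP was the only one of the 3 genes with a breed difference that passed. It was lower in Pi by -3.18 ± 0.68 on the log2 scale, or 9.05-fold, with a 95% interval of -4.61 to -1.75 (limma, adjusted p = 0.0268), and no Pi pool came near a DL pool. In this comparison 1.37% of probe sets passed and 0.700% passed as lower in Pi. The direction held under every setting tried, with values between -3.39 and -2.86. The call did not hold: it was lost without pool a of DL (adjusted p = 0.0597), pool c of DL (0.102), pool a of Pi (0.0851), pool b of Pi (0.0696) or pool c of Pi (0.0674). It was also lost when the 6 arrays of 63 dpc were fitted alone (adjusted p = 0.0608). HBB at 63 dpc differed by -0.24 ± 0.28, Pi minus DL (adjusted p = 0.946, 95% interval -0.82 to 0.34).

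The DL pools of 63 dpc also carried transcripts of liver proteins. Of 10 hepatocyte markers 9 were measured, and their mean log2 level was 3.34, 3.41 and 3.34 in the Pi pools and 8.87, 7.40 and 9.57 in the DL pools of 63 dpc. Their summed linear intensity was 2679 to 3081 in Pi and 8501 to 31840 in DL. Most of the sum in Pi was APOA1, whose log2 levels overlapped between the breeds, at 11.55, 11.57 and 11.37 in Pi and 11.75, 11.36 and 12.01 in DL. TTR, APOA2 and SERPINA1 stood at background in all 3 Pi pools, and none of the 9 stood at background in all DL pools. Pi minus DL, 3 of the 9 passed as lower in Pi, namely AFP (adjusted p = 0.0073), AHSG (adjusted p = 0.00885) and SERPINA1 (adjusted p = 0.0073). SERPINA1 was at least 1592-fold lower in Pi than in DL, set against the ceiling. AFP stood at 2.19, 3.33 and 2.19 in Pi and at 9.92, 7.79 and 10.98 in DL, and AHSG at 2.92, 2.27 and 2.27 in Pi and at 12.53, 10.68 and 13.34 in DL. For each of these 2 genes 2 Pi pools were at background. Within DL, pool c was the highest for both AHSP and the hepatocyte mean, and the lowest was pool a for AHSP and pool b for the markers. At 91 dpc, the DL hepatocyte means were 3.61, 3.73 and 5.57 with AHSP at 7.40, 6.33 and 7.89. In adult Pi pool b the hepatocyte mean was 10.72 with AHSP at 4.66. The part of liver transcripts in the AHSP difference at 63 dpc was not tested.

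Of the other red cell genes, FECH passed as lower in Pi at 63 dpc, and ALAS2 and HBM had lower mean levels in Pi without passing. ALAS2, the red cell form of the first enzyme of haem synthesis, stood at 7.17, 7.10 and 7.77 in Pi and at 9.73, 8.76 and 9.89 in DL, a difference of -2.11 ± 0.76 (adjusted p = 0.21). HBM, the alpha-like globin, stood at 3.60, 5.54 and 5.11 in Pi and at 6.45, 7.05 and 6.79 in DL, a difference of -2.01 ± 0.81 (adjusted p = 0.286). For both genes the pools of the breeds did not overlap. FECH, the enzyme that puts iron into haem, was lower in Pi by -0.54 ± 0.10 (adjusted p = 0.014) and was the only 1 of 8 measured haem synthesis genes to pass at this stage, at a median of -0.18 over the 8. SLC25A37, the mitochondrial iron importer, did not pass. Its pools did not overlap, at 6.55, 6.74 and 7.05 in Pi and 7.54, 7.30 and 7.49 in DL. ALAS1 and UROD, of the same list, had mean levels of 8.94 and 8.72 in Pi and of 8.79 and 8.62 in DL. The median difference was -0.42 over the 5 measured red cell membrane genes and -0.02 over the 8 measured enzyme and maturation genes. The 10 muscle markers differed between the breeds by a median of -0.05 at 63 dpc.

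**Figure D3:**
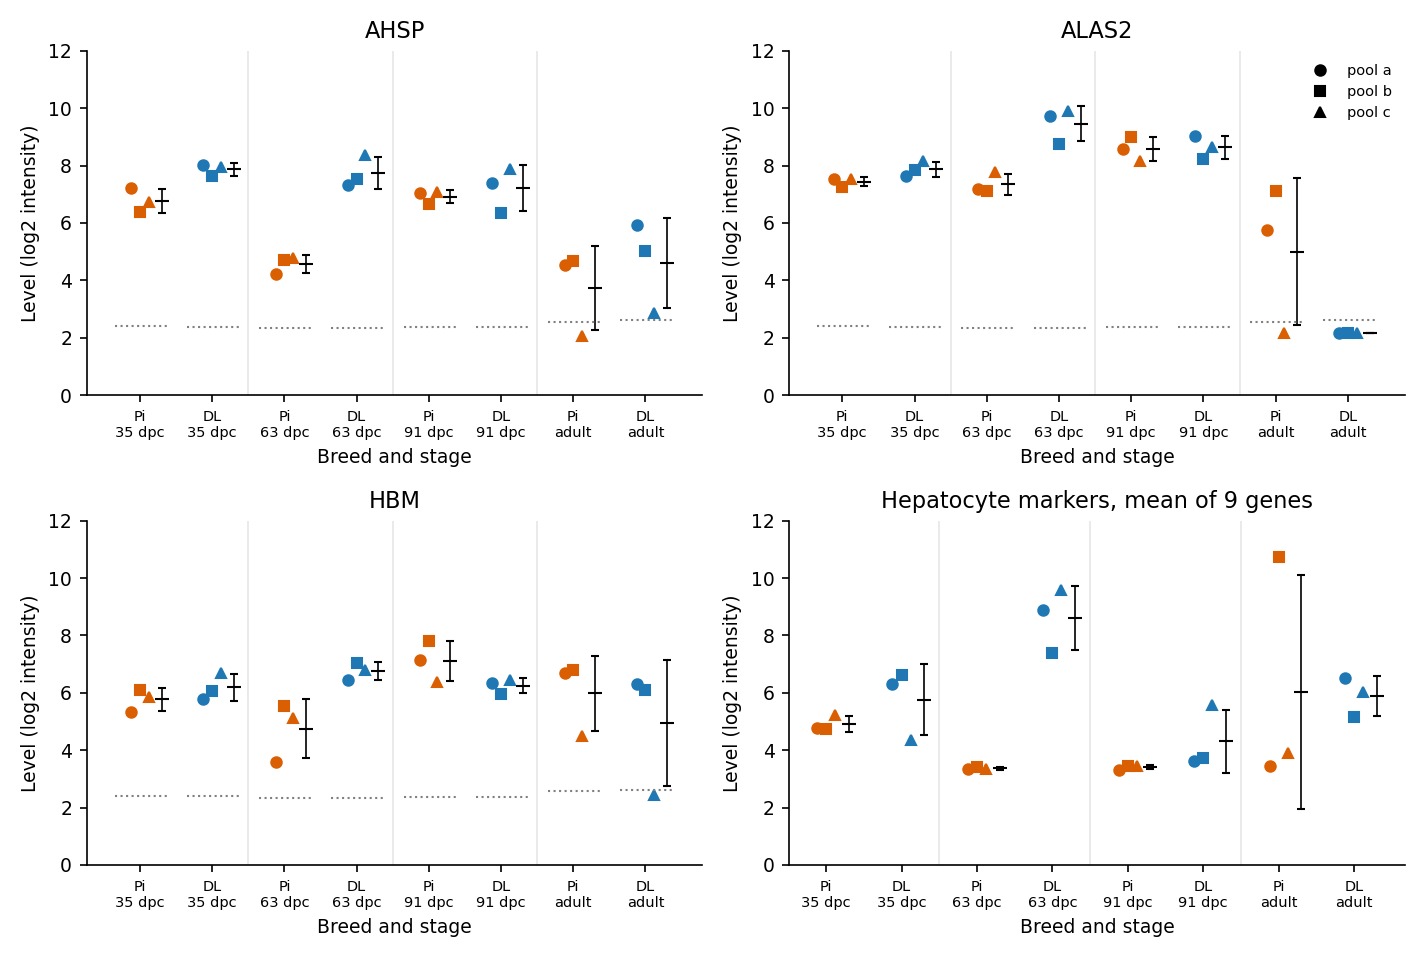
Log2 intensity of AHSP, ALAS2 and HBM, and the mean log2 intensity of 9 hepatocyte markers, in each pool by breed (Pi orange, DL blue) and stage, with group means and SD (n = 3) and the background ceiling as a dotted line for single genes. At 63 dpc the 3 DL pools lie above the 3 Pi pools in all 4 panels, and in adults ALAS2 is at background in every DL pool.

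At 91 dpc and in adults no breed difference of HBB or AHSP passed. At 91 dpc, where 2.72% of probe sets passed, HBB differed by 0.39 ± 0.28, Pi minus DL (adjusted p = 0.632), and AHSP by -0.29 ± 0.68 (adjusted p = 1). In adults, where 6.33% passed, HBB differed by 0.01 ± 0.28 (adjusted p = 1, 95% interval -0.57 to 0.59) and AHSP by -0.85 ± 0.68 (adjusted p = 0.531, 95% interval -2.28 to 0.58). These intervals are wide enough to hold differences of more than 1 log2 unit for AHSP. They rest on the spread shared over all groups. The SD of AHSP was 1.465 in Pi and 1.576 in DL adults, above that of every fetal group, so its adult interval is likely too narrow.

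The other genes of haemoglobin were read as a background to the 3. Of 13 other globin genes listed, 3 were measured, and CYGB alone passed at a step over both breeds. HBM changed by -0.22 ± 0.57 between 35 and 63 dpc (adjusted p = 0.851), by 0.92 ± 0.57 between 63 and 91 dpc (adjusted p = 0.347) and by -1.21 ± 0.57 from 91 dpc to adults (adjusted p = 0.0798). HBM in adults stood at 6.68, 6.78 and 4.48 in Pi and at 6.30, 6.11 and 2.43 in DL, so pool c was the lowest in each breed, as for AHSP. CYGB is cytoglobin, a globin of fibroblasts and other cells, and it rose by 1.78 ± 0.57 between 63 and 91 dpc (adjusted p = 0.0369). NGB, neuroglobin, the globin of neurons, missed the threshold at every step over both breeds and was at least 3.97-fold higher in Pi than in DL adults, where all DL pools were at background (adjusted p = 0.0098).

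Haem synthesis genes moved in both directions. The counts of this and the next lists stand beside 44.2% of all probe sets passing between 35 and 63 dpc, 18.3% between 63 and 91 dpc and 57.4% from 91 dpc to adults, and with so few genes measured no count is read as particular to its list. Between 35 and 63 dpc 5 of 8 measured of 13 listed rose and 1 fell, with a median log2 change of 0.52. SLC25A37, the mitochondrial iron importer mitoferrin, rose by 0.63 ± 0.14 (adjusted p = 0.00121) and the chain enzymes UROD, ALAD and PPOX by 0.50 to 0.59. From 91 dpc to adults 5 rose and 2 fell, with a median of 0.42. ALAS1, the form of the first enzyme used outside red cells, rose by 2.03 ± 0.10 in adults (adjusted p = 9.22e-12). ALAS2 fell at that step (adjusted p = 2.29e-07), and since 4 of the 6 adult pools were at background its fitted change is not given as a size.

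ALAS2 in adults stood at 5.76, 7.10 and 2.15 in Pi and at 2.16, 2.15 and 2.15 in DL. At 91 dpc it averaged 8.57 ± 0.41 in Pi and 8.63 ± 0.41 in DL (SD, n = 3 each). All adult DL pools and pool c of adult Pi were at background, so ALAS2 was at least 64.7-fold lower in DL adults than at 91 dpc. ALAS2 passed as higher in Pi than in DL adults (adjusted p = 0.032), with 1 Pi pool among the DL values. HBB in the same adult DL pools stood at 6.27 to 7.71, well above background.

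**Figure D4:**
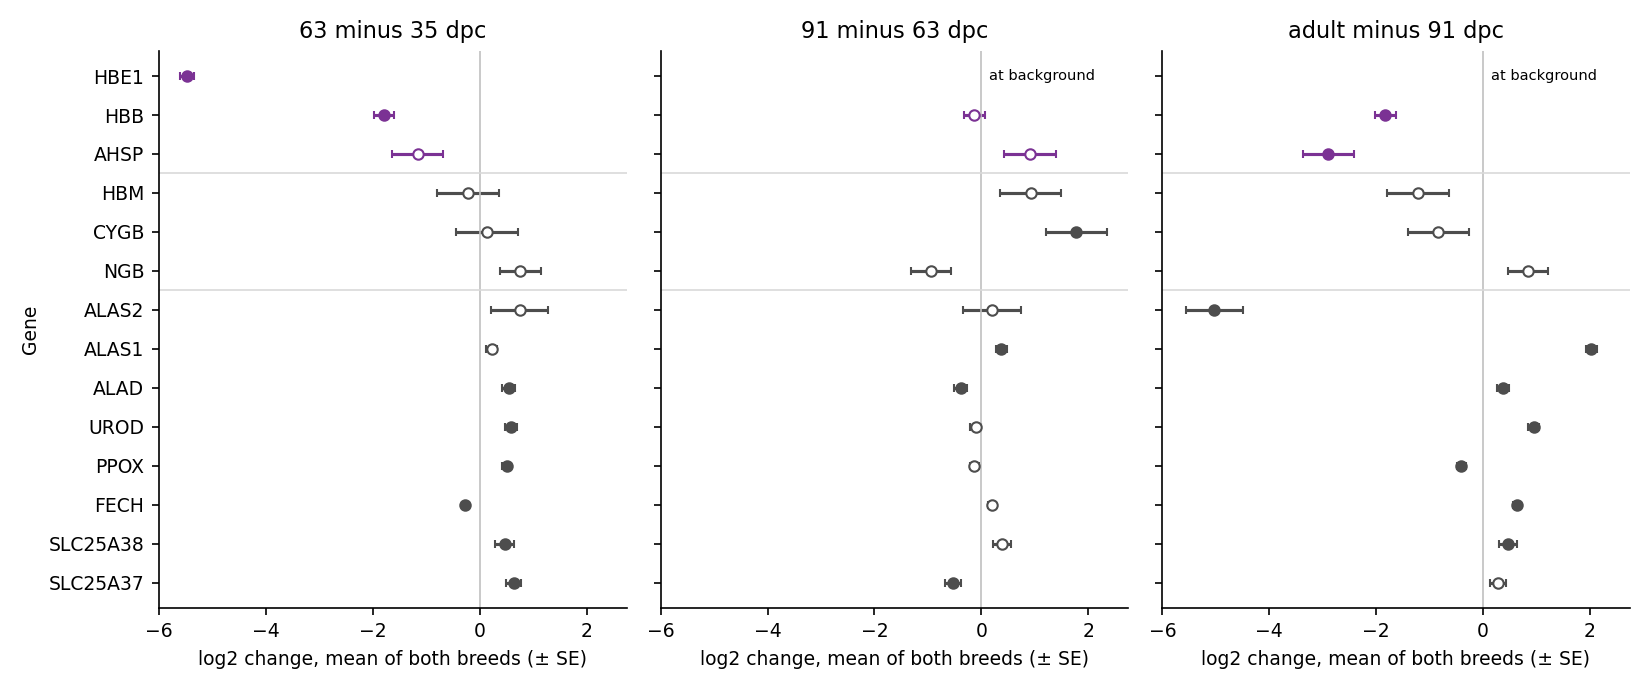
Log2 change of HBE1, HBB and AHSP (purple), of the other measured globins and of haem synthesis genes (grey) at each step between stages, later minus earlier, as the mean of both breeds with its standard error. Filled points passed an adjusted p of 0.05, and the HBE1 point of -5.48 is a fitted value that ends at background, where later steps are not drawn. The adult point of ALAS2 is likewise a fitted value, with 4 of 6 adult pools at background.

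Among the measured genes of the red cell membrane, enzymes and maturation, some rose and some fell at the same step. Of 21 membrane genes 5 were measured, and between 35 and 63 dpc 2 rose and 1 fell. TMOD1, tropomodulin of the membrane skeleton and of thin filaments in muscle, rose by 2.18 ± 0.09 (adjusted p = 5.06e-13), CD47, a self marker on red and other cells, rose by 1.15 ± 0.15, and DMTN, dematin, fell by 0.94 ± 0.32 (adjusted p = 0.0232). In adults against 91 dpc EPB41, the membrane skeleton's protein 4.1, rose by 1.06 ± 0.19 (adjusted p = 8.2e-05) and CD47 fell by 1.33 ± 0.15 (adjusted p = 3.83e-07). Of 17 enzyme and maturation genes 8 were measured. Between 35 and 63 dpc 2 rose and 5 fell, with a median of -0.41, and from 91 dpc to adults 7 rose and 1 fell, with a median of 0.77.

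BPGM, which makes the 2,3-bisphosphoglycerate that lowers the oxygen affinity of haemoglobin, ran against HBB in adults. Its log2 level lay between 7.37 and 7.69 at 35 dpc, between 5.83 and 6.82 at 63 dpc, between 3.21 and 5.53 at 91 dpc and between 10.64 and 11.51 in adults. It fell at both fetal steps, by 1.41 ± 0.28 (adjusted p = 0.000419) and 1.56 ± 0.28 (adjusted p = 0.000555), and rose by 6.58 ± 0.28 in adults (adjusted p = 8.26e-13). BNIP3L, which clears mitochondria from maturing red cells and acts in other tissues too, fell by 1.72 ± 0.16 between 35 and 63 dpc and by 2.97 ± 0.16 in adults (adjusted p = 7.85e-08 and 2.71e-11). GCLC, of glutathione synthesis, fell by 2.15 ± 0.21 between 35 and 63 dpc (adjusted p = 1.32e-07) and rose by 3.18 ± 0.21 in adults (adjusted p = 4.01e-10).

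Of 24 regulators of the red cell lineage 11 were measured, and 1 fell steeply between 35 and 63 dpc as HBE1 did. BCL11A, known in human and mouse as a repressor of embryonic and fetal globin genes and also active in neurons, stood between 7.80 and 8.32 in the 6 pools of 35 dpc, between 2.39 and 3.43 at 63 dpc, and at 4.06 or below in later pools. It was 36.3-fold lower at 63 than at 35 dpc (adjusted p = 1.12e-11), and the stages did not overlap. The breeds did not run as for HBE1 at 35 dpc. BCL11A averaged 8.25 in Pi and 7.85 in DL, a difference that did not pass, and HBE1 6.70 in Pi and 8.69 in DL. BCL11A fell in both breeds. It was the only one of the 11 to fall at this step, and 3 rose, among them STAT5A (2.40 ± 0.30, adjusted p = 2.21e-06) and STAT5B (1.60 ± 0.10, adjusted p = 1.58e-10), which relay cytokine signals. The part of other cell types in the fall of BCL11A was not tested. KLF1, the activator of the adult beta globin gene in red cell precursors, lay between 2.02 and 2.49 over all pools. EPOR, the erythropoietin receptor, lay between 2.08 and 3.37. From 91 dpc to adults KIT, the stem cell factor receptor, fell by 2.77 ± 0.37 (adjusted p = 3.48e-06) and LMO2, a partner of red cell transcription factors that endothelium also uses, by 1.89 ± 0.19 (adjusted p = 7.22e-08).

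Among 6 measured of 8 oxygen-sensing genes, HIF1A, the oxygen-regulated transcription factor, stepped as HBB did. It fell by 1.62 ± 0.20 between 35 and 63 dpc (adjusted p = 1.78e-06), changed by -0.21 ± 0.20 between 63 and 91 dpc (adjusted p = 0.615) and fell by 1.58 ± 0.20 in adults (adjusted p = 1.67e-06). EPAS1, the related factor abundant in endothelium, rose at all 3 steps, by 1.36 ± 0.25, 1.40 ± 0.25 and 2.56 ± 0.25 (adjusted p = 0.000189, 0.000529 and 7.33e-08). EPO, erythropoietin itself, passed at no step over both breeds, with its nearest value in adults (limma, adjusted p = 0.054). It was at background in every fetal pool, so its change is not given as a size. Among adult pools only pool b of Pi (2.46) and pool a of DL (4.03) lay above their ceiling.

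Of 12 measured genes of iron uptake, storage and haem clearance 3 rose and 3 fell between 35 and 63 dpc. From 91 dpc to adults 7 of the 12 passed as higher and 5 did not pass, with a median log2 change of 1.22, a share of calls near the 57.4% of all probe sets. TFRC, the transferrin receptor through which red cell precursors and other cells take up iron, stood at 5.04 to 5.80 in adult Pi and 7.47 to 8.04 in adult DL pools. At 91 dpc 5 of its 6 pools were at background. TFRC was lower in adult Pi by -2.29 ± 0.22 (adjusted p = 7.12e-06). HP and HAMP, haptoglobin and hepcidin, which the liver makes, rose in adults (adjusted p = 0.00267 and 8.7e-06), beside hepatocyte means of 3.43 to 10.72 in adult Pi and 5.14 to 6.51 in adult DL pools. HAMP was at background in all 6 pools of 91 dpc and at least 14.1-fold higher in adults, and HP was at background in 4 of those 6. The part of liver transcripts in these 2 rises was not tested.

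Markers of other blood cells were read too. Of 8 measured leukocyte markers 1 rose between 35 and 63 dpc and 1 between 63 and 91 dpc, and 5 rose in adults, with a median of 0.79. Their summed linear intensity was 62.0 to 142 in Pi and 84.8 to 99.1 in DL at 35 dpc, 228 to 423 in Pi and 285 to 387 in DL at 63 dpc, 911 to 1017 in Pi and 655 to 1157 in DL at 91 dpc, and 1613 to 1803 in Pi and 1407 to 1575 in DL adults. From 63 dpc on these sums mostly follow CD74 alone. Its log2 level was 7.41 to 8.39 at 63 dpc, 9.21 to 10.09 at 91 dpc and 10.13 to 10.53 in adults. CD3E and ITGAM were at background in every fetal pool. Of 4 measured platelet markers PPBP stood at background in all pools of all groups, and GP9 in all but pool a of DL at 35 dpc. From 91 dpc to adults 2 of the 4 fell, and ITGA2B was at background in every adult pool.

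Within groups, pools that were high for 1 of the 3 genes were not reliably high for another. Deviations from group means over the 24 pools gave Pearson's r = 0.31 and Spearman's rho = 0.08 for HBB and AHSP (permutation within groups, p = 0.499 and 0.79, two-sided). For HBE1 and AHSP r was 0.19 and rho 0.29 (permutation p = 0.0382 and 0.142, adjusted over the 3 pairs 0.115 and 0.213). For HBE1 and HBB r was -0.19 and rho -0.36 (permutation p = 0.0796 and 0.0711, adjusted 0.119 and 0.213). Without the 2 pools farthest from the median, r was -0.08, 0.14 and -0.16 for these pairs. The HBE1 deviations outside 35 dpc are deviations at background.

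The genes with the most similar course differed for the 3. Over the 24 arrays and 6762 other genes, as a description that stage differences dominate, HBE1 correlated most with FSD1 (r = 0.994), JAKMIP1 (0.987), C14H10orf35 (0.986), CHGB (0.985) and CCDC181 (0.983). HBB correlated most with HNRNPR (0.982), RAB1A, HIF1A and SMARCA5 (0.980 each) and GOLT1B (0.979). AHSP had no neighbour as close, with PPP4R1L at 0.832, RTN4 at 0.824, LRP6 at 0.817, C16H5orf49 at 0.815 and METTL8 at 0.813. By deviations from group means alone, HBE1 was nearest to ACSL6 (0.906), GAD1 (0.847), POU3F1 (0.828), SNAP25 (0.805) and LRRC49 (0.798). HBB was nearest to CASD1 (0.863) and HIF1A (0.846), and AHSP to DPT (0.870) and POMT1 (0.867). The part of other cell types in these similarities was not tested. HIF1A and GOLT1B stood among the 5 nearest genes of HBB by both measures, and HBM and ALAS2 by neither. Whether the HBB probe set follows the red cell content of a pool was not tested.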

How the data were processed

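Each of the 24 arrays gave 1 log2 intensity per probe set, as deposited by the authors. GCOS 1.1.1 is named per the submitters' processing notes, while no source used here gives the method of summarising probes. No source states the log base either; values between 1.60 and 16.10 were read as log2. After sorting, all 24 deposited columns hold the same values, so the table was quantile-normalised, and changes are relative ones.

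Of 24123 probe sets 124 controls were left out. Limma 3.58.1 in R 4.3.3 fitted 1 mean per group to all 24 arrays (16 residual degrees of freedom, 1.31 prior degrees of freedom) and tested 16 contrasts, two-sided, with Benjamini-Hochberg adjustment over the 23999 probe sets and a threshold of 0.05. It was tested on simulated data. Values after ± are standard errors unless given as SD. Where a gene had several probe sets, the brightest by mean over the arrays stood for it. Precision is limited by the number of arrays.

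The 3 genes and the lists were chosen with earlier results of these data known. Named beside the 3 genes were the 4 measured members of each list with the largest change at a step, all measured globins and haem synthesis genes, the markers, and the 5 genes nearest to each of the 3. KLF1, EPOR, EPO and PPBP, and list genes named for breed differences, were named after their values were seen. Within-group correlations used 100000 permutations of pools within groups.

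Pool letters did not pair the breeds: the correlation of deviations between same-letter pools of a stage was -0.07 to 0.09, never above 0.1. Alternatives were scaling to 27 hybridisation control probe sets, the compared arrays fitted alone, dim probe sets left out, array weights, the pool letter as a replicate block, each pool left out, and fetal pools alone for correlations. Leaving out pool c of both adult groups was added after the data were seen. Figures used matplotlib 3.10.9.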

Additional observations from a re-analysis of the deposited data

Results flagged for a closer look

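The fitted step of HBE1 between 35 and 63 dpc differed between the breeds. Pi step minus DL step was 2.05 ± 0.25 on the log2 scale, with an adjusted p of 0.000333 in limma's interaction test. Both breeds ended at background at 63 dpc, so both steps are lower bounds and their sizes cannot be compared. The standard error rests on an estimate of spread shared over all groups. For HBE1 most groups lie at background with an SD of 0.15 or less, against 0.38 in Pi and 0.45 in DL at 35 dpc. The fitted value carries the breed difference at 35 dpc, where HBE1 averaged 6.70 in Pi and 8.69 in DL. Under the alternatives it lay between 1.42, after scaling to the hybridisation controls, and 2.29, and passed in each.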

How the results depend on the processing

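Of the recomputed values of HBE1, HBB and AHSP, 466 kept their direction and side of the threshold, 10 came to pass, 16 ceased to pass and 9 changed sign. The falls of HBE1 and HBB between 35 and 63 dpc, those of HBB and AHSP into adults over both breeds, and the HBE1 breed difference at 35 dpc passed under every alternative run. For AHSP between 35 and 63 dpc over both breeds the change passed at -1.98 scaled to the hybridisation controls (adjusted p = 0.00143), -1.16 with the compared arrays alone (0.00127) or dim probe sets left out (0.0477), and -1.11 with array weights (0.00219). It was -1.32 to -1.05 with single pools left out and passed only without pool c of DL at 63 dpc. The breed difference of that AHSP step passed at -2.71 scaled, -2.08 alone and -2.00 weighted, and that of the next step at 2.99 weighted (0.0443). AHSP, Pi minus DL, was -1.10 weighted at 35 dpc (0.0462), and at 63 dpc -3.18 with the compared arrays alone (0.0608) and -3.39 to -2.86 with single pools left out. Signs changed in differences that never passed: HBB in Pi between 63 and 91 dpc (-0.068 scaled); HBB, Pi minus DL, in adults (-0.20 scaled, -0.39 to 0.33 with single pools left out, -0.34 without pool c of both breeds); AHSP in DL between 35 and 63 dpc (-0.44 to 0.084 with single pools left out); AHSP, Pi minus DL, at 91 dpc (-0.73 to 0.052); and the AHSP breed difference of the adult step (-1.44 to 0.28). The within-group r was 0.009 for HBE1 and HBB scaled and -0.48 for HBB and AHSP in fetal pools alone, where rho for HBE1 and HBB was -0.59 (permutation, adjusted p = 0.04). The fit of all arrays shares its estimate of spread over the groups, and the SD of AHSP was 1.465 in Pi and 1.576 in DL adults. In the fetal groups the SD of AHSP was 0.22 to 0.80. The part of this spread in the AHSP calls, and the cause of the other changes, was not tested.

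With the pool letter as a replicate block, AHSP, Pi minus DL, at 63 dpc stayed at -3.18 (adjusted p = 0.0378), and no call of the 3 genes changed; counts of all calls stayed within 1.5 times. The letters pair nothing, so this fit is a check only. Counts of probe sets that passed moved more with other settings. Scaling gave 17663 against 10611 for 63 minus 35 dpc, with 11.9% against 50.3% of calls higher; 8423 against 966 for Pi minus DL at 35 dpc, with 98.1% against 40.1% higher in Pi; 212 against 329 at 63 dpc (22.2% against 48.9% higher), 2550 against 653 at 91 dpc (6.12% against 49.5%), and 1912 against 1519 in adults (19.6% against 45.7%). For 91 minus 63 dpc 31.0% against 48.6% of calls were higher, and for adults against 91 dpc 39.9% against 53.7%. With the compared arrays alone Pi minus DL gave 11 at 63 dpc, 16 at 91 dpc and 21 in adults, and with array weights 3156, 1000, 1285 and 242 at the 4 stages. The breed differences of the 3 steps gave 793, 22 and 638 as reported, 7065, 30 and 378 scaled, 1395, 7 and 80 alone, and 2329, 113 and 174 weighted. Other probe sets of the 3 genes could not be tried, since each has 1. HBE1 has no measurable change after 63 dpc, and 21.3% to 32.2% of probe sets lay at background on an array.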
